A study of Mus musculus with 7 samples.

Results

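A set of 10 genes of the prostaglandin and leukotriene pathway were followed in bone-marrow-derived macrophages (BMDMs), the macrophages that grow out of mouse bone marrow in culture. They were taken by symbol and were Pla2g4a, Ptgs1, Ptgs2, Ptges, Ptger2, Ptger4, Tbxas1, Alox5, Alox5ap and Lta4h. All 10 were found, among 48440 genes in the table of the LPS experiment and among 55352 genes in the table of the AAV experiment. The cells came from wild-type C57BL/6 mice of both sexes, as young adults, and were grown with M-CSF at 20 ng per mL. For the LPS experiment, cells were left without treatment (LPS 0h) or received LPS, the endotoxin of Gram-negative bacteria, at 100 ng per mL for 2 h (LPS 2h) or 4 h (LPS 4h), with 1 library per time point. For the AAV experiment, wild-type BMDMs carried an adeno-associated virus of serotype AAV1 for 48 h, which expressed green fluorescent protein (AAV-GFP, the control) or Shisa3 (AAV-Shisa3) from the CAG promoter, a promoter active in most cell types, with 2 samples per group. Every sample of the AAV experiment had thus met the virus, and no untransduced group was in that table. The labels do not say whether the samples of a group came from separate mice, so the p-values measure the spread between these samples, which may be technical.

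Prostaglandins and leukotrienes are short-lived lipids made from arachidonic acid. Cytosolic phospholipase A2 (Pla2g4a) frees arachidonic acid from membranes, the cyclooxygenases COX-1 (Ptgs1) and COX-2 (Ptgs2) turn it into PGH2, and PGE synthase (Ptges) or thromboxane synthase (Tbxas1) turn that into PGE2 or thromboxane. In a parallel branch, 5-lipoxygenase (Alox5) works with its activating protein FLAP (Alox5ap) to give LTA4, from which LTA4 hydrolase (Lta4h) makes LTB4. Macrophages make lipids of both branches, and they sense PGE2 through receptors that include EP2 (Ptger2) and EP4 (Ptger4).

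The deposited LPS values are normalised read counts, and 100% of them were whole multiples of what 1 read was worth in their library, to within 0.01 reads. The recovered reads summed to between 7263258 (LPS 2h) and 32659392 (LPS 4h) per library. The AAV values sum to 999778 to 999818 per sample and were read as TPM, which are scaled by gene length and keep no record of depth. All 8 macrophage markers were above 1 TPM in every AAV sample, and their summed level was 34736 to 38318 TPM. Of 7 mast cell and basophil markers, Mcpt4 and Fcer1a were listed at 0 in every AAV sample, and the summed level was 0.98 to 3.58 TPM. Summed TPM across the AAV samples was 3.43 to 4.88 for dendritic cell, 0.18 to 0.49 for B cell, 5.85 to 10.51 for T cell, and 9.39 to 16.29 for fibroblast markers. Of the T cell markers, Cd4 gave 5.76 and 7.13 TPM in AAV-GFP and 8.82 and 10.39 TPM in AAV-Shisa3. Cd3e and Cd3d were listed at 0 in every AAV sample, and Cd8a at 0.05 to 0.14 TPM. For platelet markers the summed TPM was 693 and 819 in AAV-GFP and 881 and 1132 in AAV-Shisa3. Of this, Pf4 alone gave 678 and 803 in AAV-GFP and 863 and 1111 in AAV-Shisa3. The summed TPM of 8 neutrophil markers was 593 and 565 in AAV-GFP and 1090 and 681 in AAV-Shisa3. The TPM of Shisa3 itself was 7.88 and 10.85 in AAV-GFP and 12.31 and 17.81 in AAV-Shisa3, a log2 fold change of 0.63 (standard error 0.22) that did not pass the threshold (adjusted p = 0.138 from limma). Apart from this sequencing, the paper reports that AAV-Shisa3 raised Shisa3 mRNA and protein in BMDMs.

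The question of the LPS experiment was which genes change in BMDMs as LPS acts. The genes that lead from membrane lipid to PGE2 were higher at 2 h and higher again at 4 h, whereas the other cyclooxygenase and thromboxane synthase were lower at 4 h than at 0 h. Of the 10 genes, 5 were at least 2-fold higher at 2 h, where 20.5% of all 17854 genes averaging 1 or more were, and 0 were at least 2-fold lower, against 24.7%. At 4 h, 4 were at least 2-fold higher (22.2% of all genes) and 2 at least 2-fold lower (23.6%). With library totals the counts at 4 h were 3 higher and 6 lower, and with centring 4 higher and 1 lower. The median log2 fold of all genes at 4 h was then -0.83 and 0.33. These counts can therefore not be set against the shares above, which used the authors' factors. With those factors, from 2 h to 4 h, 3 of the 10 genes were at least 2-fold higher (17.9%) and 4 at least 2-fold lower (15.2%). The median log2 fold of the 10 genes was 0.97 at 2 h and -0.46 at 4 h, and that of all genes -0.05 and -0.04. With 1 library per time point these differences cannot be set against replicates and carry no p-value, and the intervals below are 95% intervals that cover counting error only.

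Ptgs2, which encodes the inducible cyclooxygenase, went from a normalised read count of 24.4 without LPS to 14233 at 2 h and 41858 at 4 h. It lies on the plus strand of chromosome 1 of GRCm38, from 150100031 to 150108227, and its main transcript has 10 exons. Behind these values stood 38, 6518 and 77028 reads in that order. Its value at 2 h was 582-fold that at 0 h (interval 424 to 824) and its value at 4 h was 1712-fold that at 0 h (1247 to 2420). Ranked by log2 fold it was number 3 among the 17854 genes at 2 h and number 5 at 4 h. It took up 0.236% of all reads at 4 h, against 0.000244% at 0 h. With the reads scaled to equal library totals in place of the authors' factors, the folds were 368 and 968.

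Ptges, the PGE synthase that works with COX-2, was also higher at each later time. Its normalised read count was 17.4 at 0 h, 1037 at 2 h and 8352 at 4 h. The value at 2 h was 59.7-fold that at 0 h (interval 40.5 to 91.6, from 27 reads at 0 h), and the value at 4 h was 481-fold (330 to 730). Between 2 h and 4 h Ptges was 8.05-fold higher (7.35 to 8.84) and Ptgs2 2.94-fold higher (2.87 to 3.02), and these intervals did not overlap. Ptges lies on the minus strand of chromosome 2 of GRCm38, from 30889471 to 30929863, in 3 exons.

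Pla2g4a, which frees the arachidonic acid that both branches use, had 107 at 0 h, 574 at 2 h and 3745 at 4 h. It was 5.35-fold higher at 2 h (interval 4.39 to 6.53) and 34.9-fold higher at 4 h (29.9 to 40.9). Its value at 4 h was 6.52-fold that at 2 h (5.76 to 7.40). Pla2g4a lies on the minus strand of chromosome 1, from 149829618 to 149961290, in 18 exons.

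**Figure D1:**
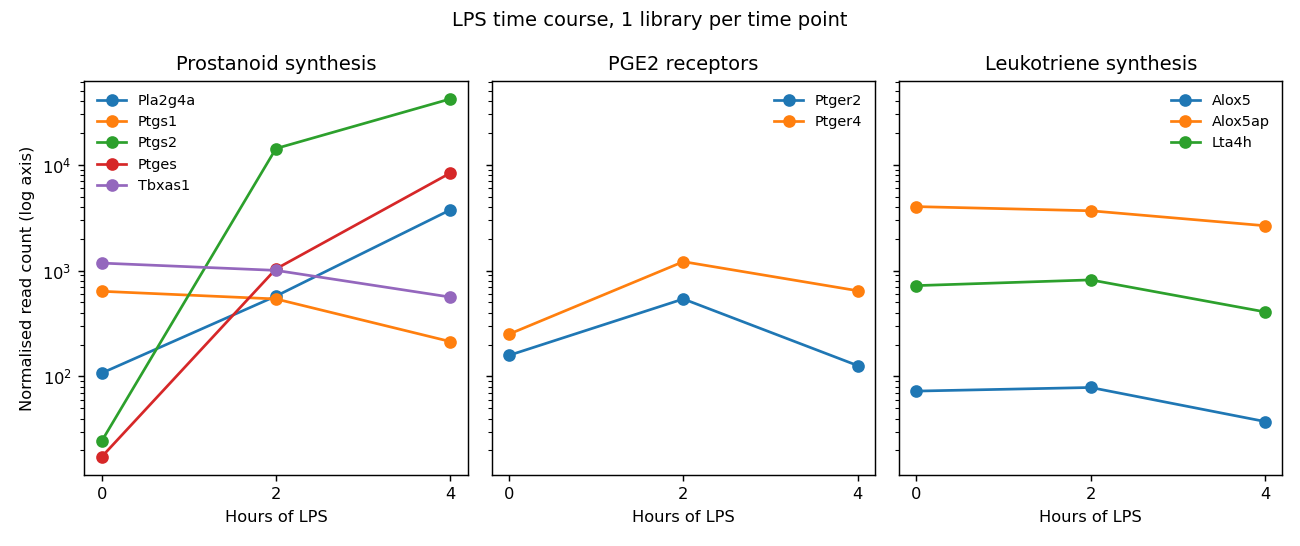
Normalised read counts (log axis) of the 10 genes against hours of LPS, with 1 library and so 1 point per time. Ptgs2, Ptges and Pla2g4a lie higher at each later time, Ptger2 and Ptger4 are highest at 2 h, and Ptgs1, Tbxas1 and the 3 leukotriene genes lie lower at 4 h than at 0 h.

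Ptgs1, which encodes the cyclooxygenase most cells express at rest, had 637 at 0 h, 539 at 2 h and 214 at 4 h. At 4 h it was 2.98-fold lower than at 0 h, a log2 fold of -1.57, which lay between -2.39 and -1.20 under the other scalings. Tbxas1 had 1177 at 0 h, 1004 at 2 h and 562 at 4 h, and at 4 h it was 2.10-fold lower (log2 fold -1.07), with -1.89 under library totals and -0.69 under centring, where it was no longer at least 2-fold lower. Both genes thus ended lowest at 4 h in the 3 libraries. Their log2 folds at 2 h were small, -0.24 and -0.23, and turned to 0.07 and 0.08 when each library was centred on its median, so no direction is given for 2 h. Tbxas1 shares bases with Hipk2 on the opposite strand, whose value was 487 at 0 h and 1145 at 4 h, and whether the reads were counted by strand is not stated.

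The promoters of both cyclooxygenases and of Ptges are shown because these genes moved apart under LPS. Each run is the 250 bases before the gene's start in RefSeq on GRCm38.p6, 5′ to 3′ along the gene's strand, with capitals for matches to the motifs searched. They are chr1:150099781-150100030 on the plus strand for Ptgs2, chr2:30903298-30903547 on the minus strand for Ptges and chr2:36230176-36230425 on the plus strand for Ptgs1. The RefSeq start used for Ptges lies inside the span that GENCODE gives this gene, which ends at 30929863, so the annotations differ in where it starts.
Ptgs2: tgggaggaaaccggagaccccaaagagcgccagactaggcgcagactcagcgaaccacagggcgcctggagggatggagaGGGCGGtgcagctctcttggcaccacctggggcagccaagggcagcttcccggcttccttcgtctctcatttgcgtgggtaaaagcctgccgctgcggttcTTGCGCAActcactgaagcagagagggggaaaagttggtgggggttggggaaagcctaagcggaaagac
Ptges: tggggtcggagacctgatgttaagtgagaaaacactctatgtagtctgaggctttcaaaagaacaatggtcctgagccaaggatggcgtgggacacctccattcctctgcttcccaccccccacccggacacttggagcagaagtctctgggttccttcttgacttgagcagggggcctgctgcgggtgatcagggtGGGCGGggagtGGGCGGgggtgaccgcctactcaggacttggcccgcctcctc
Ptgs1: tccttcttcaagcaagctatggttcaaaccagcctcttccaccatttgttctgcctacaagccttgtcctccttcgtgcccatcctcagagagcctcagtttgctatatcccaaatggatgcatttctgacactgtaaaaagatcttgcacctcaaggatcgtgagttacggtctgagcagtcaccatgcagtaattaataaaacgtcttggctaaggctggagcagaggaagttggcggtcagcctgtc
The motifs were the kB motif of NF-κB, the CRE half-site TGACGT, the E-box CACGTG, the TATA box TATAAA and, added after the sequences were seen, the C/EBP motif TTGCGCAA and the GC box GGGCGG, all on both strands. The Ptgs2 window held the C/EBP motif from base -69 to base -62, counted from -1 just before the start, and 1 GC box. The Ptges window held 2 GC boxes, and the Ptgs1 window none of the motifs. Among 32851 promoter windows of the same length, 0.164% held the C/EBP motif and 32.7% a GC box. As both motifs were chosen with the sequences in view, these shares do not measure how unusual the matches are. The kB motif was in 7.25% of the windows, the CRE half-site in 6.47%, the E-box in 6.02% and the TATA box in 12.4%. Of the 10 genes 9 had a promoter entry, all but Alox5ap, and none of these windows held the kB motif, the CRE half-site or the E-box, which says only that these letters are not in these windows. A match is a description of the letters and no measurement of binding.

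Within a library, levels can be set side by side once reads are divided by the length of the main transcript. At 0 h Ptgs2 stood at 0.0247 times the level of Ptgs1 in reads per kb. This ratio was 17.0 at 2 h and 126 at 4 h, so the more abundant cyclooxygenase transcript was Ptgs1 at 0 h and Ptgs2 at both later times. Likewise, the ratio of Ptges to Tbxas1 was 0.00805 at 0 h, 0.563 at 2 h and 8.11 at 4 h. Such ratios do not depend on how the libraries were scaled to each other. At 0 h the most abundant of the 10 transcripts per length was Alox5ap, at 321 RPKM (reads per kb, scaled by library total), and at 4 h it was Ptgs2, with 530.

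**Figure D2:**
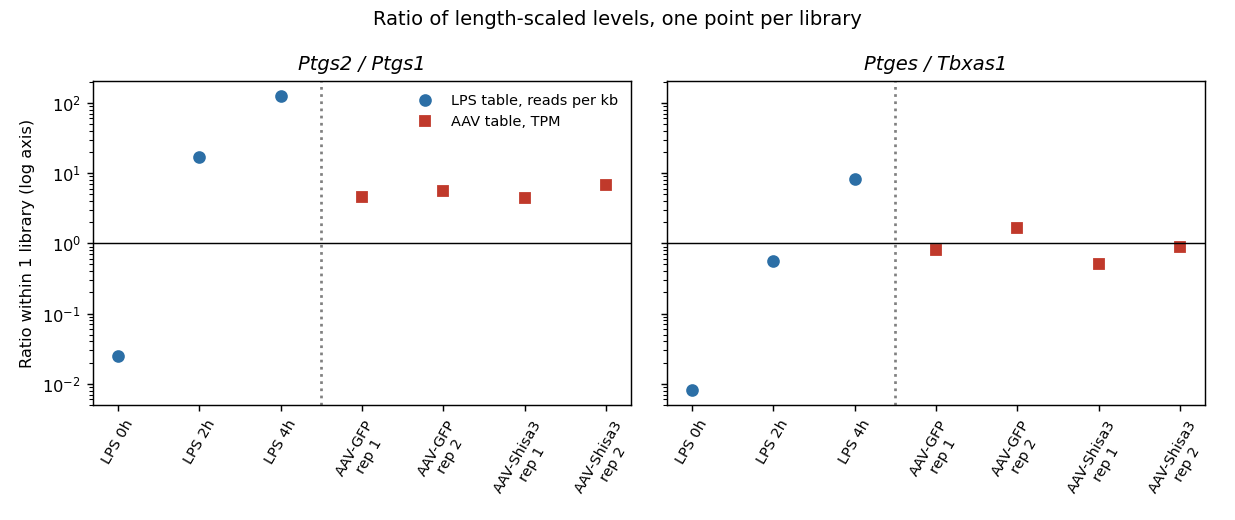
Ratios of length-scaled levels within each of the 7 libraries (log axis), as reads per kb in the LPS table and as TPM in the AAV table, which were quantified separately. Ptgs2 over Ptgs1 runs from 0.0247 to 126 in the LPS libraries and from 4.38 to 6.72 in the AAV samples.

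The PGE2 receptors Ptger2 and Ptger4 were highest at 2 h. Ptger4, the EP4 receptor that signals through cyclic AMP, had 251 at 0 h, 1214 at 2 h and 645 at 4 h. It was 4.84-fold higher at 2 h (interval 4.24 to 5.52) and 2.57-fold higher at 4 h (2.29 to 2.89). With library totals the value at 4 h was 1.45-fold that at 0 h, under the 2-fold mark. Ptger2, the EP2 receptor of the same signalling class, had 158 at 0 h, 539 at 2 h and 127 at 4 h. It was 3.41-fold higher at 2 h (2.85 to 4.08), and from 2 h to 4 h it was 4.26-fold lower. Its log2 fold at 4 h was -0.32, which became 0.05 with each library centred on its median and -1.14 with library totals, so the direction against 0 h rests on the scaling. Ptger4 overlaps Ttc33 on the opposite strand, which had 325 at 0 h, 236 at 2 h and 223 at 4 h.

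The leukotriene genes differed little at 2 h. The neutrophil markers summed to 4717, 9910 and 7040 at 0 h, 2 h and 4 h. At 4 h S100a8, S100a9, Ngp and Camp were higher than at 0 h, and Ly6g, Ltf, Elane and Mpo lower. Dendritic cell markers summed to 142, 312 and 450. At 4 h Ccr7 (262 against 12.9), Itgax (162 against 84.9) and Xcr1 were higher than at 0 h. Flt3 (4.89 against 10.9), Zbtb46 (7.06 against 9.65) and Cd209a (9.24 against 21.9) were lower. Platelet markers summed to 1018, 2570 and 1668, of which Pf4 gave 947, 2463 and 1487. These sums used the authors' factors only, and the part of such cells in the LPS values of the 10 genes was not tested. Alox5ap, which presents arachidonic acid to 5-lipoxygenase, had 4023 at 0 h, 3673 at 2 h and 2653 at 4 h. Lta4h had 721, 817 and 407 at the same times. Alox5 was the lowest of the 10 genes at 2 h and at 4 h, with 72.7 at 0 h, 78.6 at 2 h and 37.5 at 4 h, from 113, 36 and 69 reads. At 2 h their log2 folds lay between -0.13 and 0.18, and each changed sign under another scaling. At 4 h all of these 3 genes were lower than at 0 h, with log2 folds of -0.60 for Alox5ap, -0.82 for Lta4h and -0.94 for Alox5. The sign at 4 h was the same with library totals, with TMM factors and with centring, but the size was not, and library totals gave -1.42, -1.65 and -1.75.

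Beyond the 10 genes, a list of 50 further eicosanoid genes was read in the same libraries, and 37 of them had a mean value of at least 1. At 2 h 6 were at least 2-fold higher and 9 at least 2-fold lower, and at 4 h 9 were higher and 10 lower, beside the shares of all genes given above (20.5% and 24.7%, then 22.2% and 23.6%). With library totals these counts were 2 and 13 at 2 h and 4 and 17 at 4 h. The median log2 fold of all genes was then -0.71 at 2 h and -0.83 at 4 h, so the shares above are no background for these counts. With the authors' factors the median log2 fold of the 37 genes at 4 h was -0.08. Of these genes 7 had under 20 reads in every library, and their folds are imprecise. The other PGE synthases were also higher at 4 h, Ptges2 at 357 against 93.3 (3.83-fold) and Ptges3 at 1342 against 515 (2.60-fold, but 1.47-fold with library totals). Hpgd, the enzyme that inactivates prostaglandins, had 1341 at 0 h, 295 at 2 h and 159 at 4 h, and was thus 8.42-fold lower at 4 h. Ptgr2, a reductase of the next step of that breakdown, was 3.84-fold lower at 4 h. Ptgr1, another reductase of that step, had 396 at 0 h, 546 at 2 h and 452 at 4 h, and its log2 folds of 0.46 and 0.19 turned to -0.20 and -0.63 with library totals. Hpgds, which makes PGD2 in blood cells, had 3101, 1474 and 1862.

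Among the other prostanoid receptors, Ptger3 (the EP3 receptor) had 165 at 0 h, 67.7 at 2 h and 9.78 at 4 h, and was 16.9-fold lower at 4 h. Ptgir, the prostacyclin receptor, went the other way, with 127, 310 and 419 (1.86-fold at 4 h with library totals). Tbxa2r, Ptgdr2, Ptgdr, Ptgfr and Ptger1 had at most 5 reads in any of the 3 libraries. Of the leukotriene receptors, Cysltr1 had 731 at 0 h, 253 at 2 h and 979 at 4 h, where its log2 fold of 0.42 turned to -0.40 with library totals, Ltb4r1 had 37.3, 19.7 and 18.5, and Ltb4r2 at most 2 reads. Cysltr2 had 4, 1 and 40 reads. Among the 3 largest differences at 4 h in each direction, of genes with a mean value of 10 or more, were also Lpcat2, which returns acyl chains to phospholipids, at 2433 against 834 (1.65-fold with library totals), and the lysosomal phospholipase Pla2g15, at 189 against 1709. Ltc4s, which makes LTC4, had 47.6, 67.7 and 27.2.

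**Figure D3:**
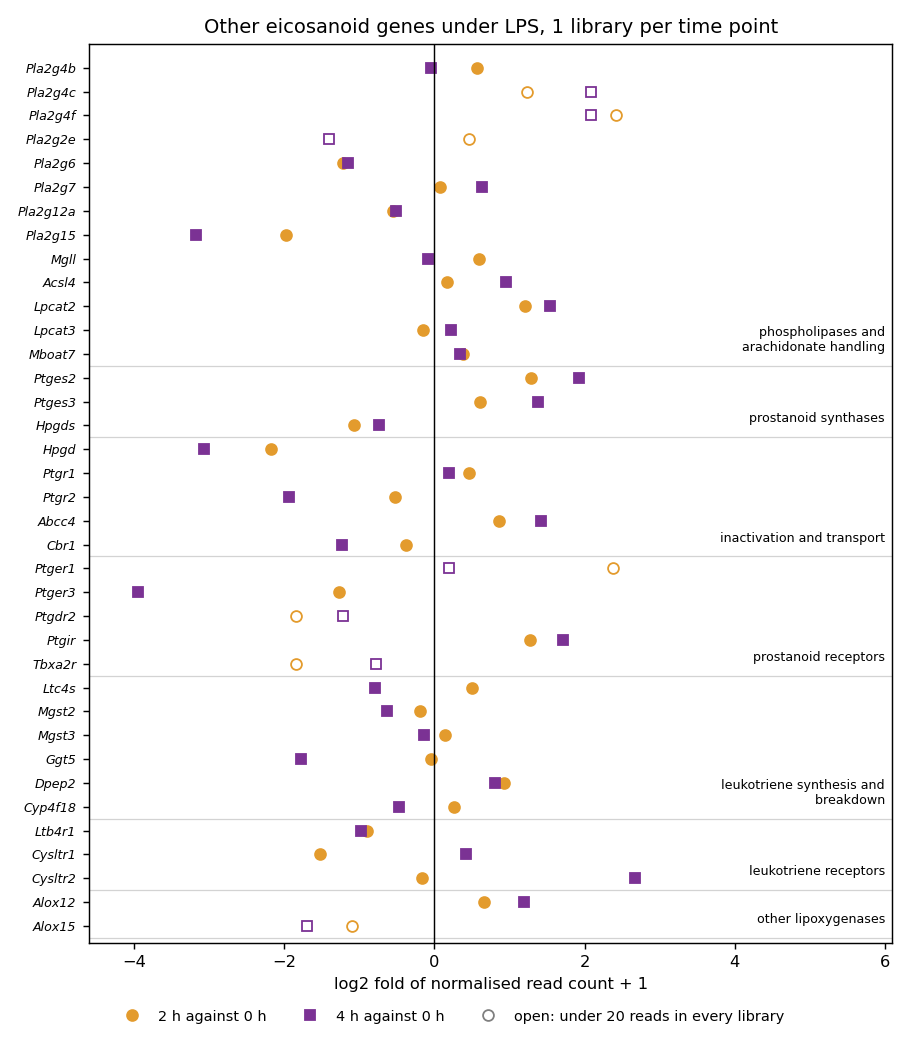
Log2 folds of normalised read count + 1 at 2 h (circles) and 4 h (squares) against 0 h for the 37 further eicosanoid genes that average 1 or more, grouped by role, with 1 library per time point. Ptger3, Pla2g15 and Hpgd lie furthest to the left at 4 h, and open symbols mark the 7 genes with under 20 reads in every library. Scaling by library totals moves the points of well-counted genes to the left by about 0.66 at 2 h and 0.82 at 4 h, and those of low genes by less.

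The AAV experiment asked what Shisa3 changes in BMDMs that were not given LPS. Of the 10 genes, 2 rose in AAV-Shisa3, Pla2g4a and Alox5ap, and 0 fell, at a limma adjusted p below 0.05, where 2.23% of the 11218 genes tested rose and 4.1% fell. At an unadjusted p under 0.05 there were 6 higher genes (8.21% of all genes) and 1 lower (19.8%). The groups did not overlap in 8 genes, of which 7 were higher in AAV-Shisa3 (18.2% of all genes) and 1 lower (41.2%). Once the samples were centred on their medians, 3 of the 10 genes rose, and over all genes the split of 250 higher to 460 lower became 410 to 230. The median log2 fold change was 0.35 for the 10 genes and -0.10 for all genes. All 10 had a mean of at least 1 TPM. For 1 gene in 2 against 2 samples, the smallest two-sided p that exact permutation allows is 0.333, so each call depends on limma's pooling of the variance over genes.

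The TPM of Pla2g4a was 18.79 and 21.04 in AAV-GFP and 36.31 and 33.58 in AAV-Shisa3. The groups were well apart, with means of 19.9 ± 1.59 and 34.9 ± 1.93 TPM (SD, n = 2 each). The log2 fold change on the scale of TPM + 1 was 0.78 (standard error 0.10, interval 0.53 to 1.04, adjusted p = 0.0232 from limma). The TPM of Alox5ap was 368.52 and 365.98 against 505.7 and 454.7, so both AAV-Shisa3 samples were higher by more than the replicates differed. Its log2 fold change was 0.38 (standard error 0.08, interval 0.19 to 0.58, adjusted p = 0.0492 from limma), which is just under the threshold. Leaving out any of the 4 samples (AAV-GFP replicate 1 or 2, AAV-Shisa3 replicate 1 or 2) ended both calls, with adjusted p from limma of 0.0945 to 0.173 for Pla2g4a and 0.104 to 0.232 for Alox5ap, while the log2 fold changes stayed at 0.70 to 0.86 and 0.31 to 0.46. In these fits the group left with 1 sample is assumed to vary like the other, and few genes of any kind passed (0 to 27 higher and 0 to 7 lower of all genes). Without the variance trend the adjusted p was 0.0557 and 0.117, and with no filter on low values 0.105 and 0.162. Neutrophils also express Alox5ap, and their 8 markers had the higher sums in AAV-Shisa3 given above (1090 and 681 against 593 and 565 TPM). Of the 8, all but Ly6g, at 0.1 to 0.29 TPM, were higher in both AAV-Shisa3 samples than in both AAV-GFP samples, S100a9 at 601.62 and 361.4 against 346.89 and 311.64 TPM and Ngp at 123.71 and 83.21 against 47.85 and 51.61 TPM. The part of such cells in the Alox5ap value was not tested, nor was that of platelets, whose summed markers were also higher in both AAV-Shisa3 samples, with Pf4 and Ppbp higher and Itga2b and Gp9 lower. In bulk samples, a different number of cells of a type and a different amount of RNA per cell cannot be told apart.

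For Ptgs2 the TPM was 9.56 and 13.7 in AAV-GFP and 16.52 and 21.44 in AAV-Shisa3. The groups did not overlap, but the samples within each group differed by several TPM. The log2 fold change was 0.67 (standard error 0.20, interval 0.17 to 1.17), and the adjusted p of 0.104 from limma did not pass the threshold. Ptgs1 had 2.12 and 2.45 against 3.77 and 3.19 TPM, a log2 fold change of 0.45 (adjusted p = 0.163 from limma). Both cyclooxygenases thus had higher values in AAV-Shisa3, and neither passed. The ratio of Ptgs2 to Ptgs1 in TPM was 4.51 and 5.59 with AAV-GFP and 4.38 and 6.72 with AAV-Shisa3, which overlap.

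For Ptges it was 61.52 and 102.99 in AAV-GFP and 44.59 and 75.88 in AAV-Shisa3. The groups overlapped, and in each the sample numbered 2 was the higher one. The log2 fold change was -0.45 with an interval of -1.23 to 0.34 (adjusted p = 0.398 from limma), which spans both directions. Tbxas1 had 76.19 and 63.28 against 87.78 and 85.35 TPM, a log2 fold change of 0.31 (interval 0.05 to 0.58, adjusted p = 0.133 from limma). Its antisense neighbour Hipk2 had 7.97 and 10.5 against 13.34 and 19.39 TPM.

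Of the PGE2 receptors, Ptger4 stood at 15.86 and 14.7 TPM in AAV-GFP and at 20.29 and 22.86 TPM in AAV-Shisa3. The groups did not overlap, and the log2 fold change of 0.47 (standard error 0.11) missed the threshold with an adjusted p of 0.0653 from limma. After centring on sample medians it was 0.59 and passed (adjusted p = 0.0460 from limma), and centring moved the median of all genes from -0.10 to 0.015. Ptger2 had 3.47 and 3.03 against 3.48 and 4.67 TPM, a log2 fold change of 0.25 (interval -0.20 to 0.70). The higher AAV-GFP value and the lower AAV-Shisa3 value of Ptger2 were nearly equal.

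In the leukotriene branch, Lta4h was the member with both AAV-Shisa3 samples below both AAV-GFP samples, at 19.85 and 19.75 against 24.78 and 22.94 TPM. Its log2 fold change was -0.26 (standard error 0.10) and did not pass (adjusted p = 0.159 from limma). Alox5 stood at 2.64 and 1.33 TPM in AAV-GFP and at 2.56 and 1.12 TPM in AAV-Shisa3, so the samples within a group differed more than the groups. Its log2 fold change of -0.08 had an interval of -0.92 to 0.75 and turned to 0.032 when samples were centred.

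**Figure D4:**
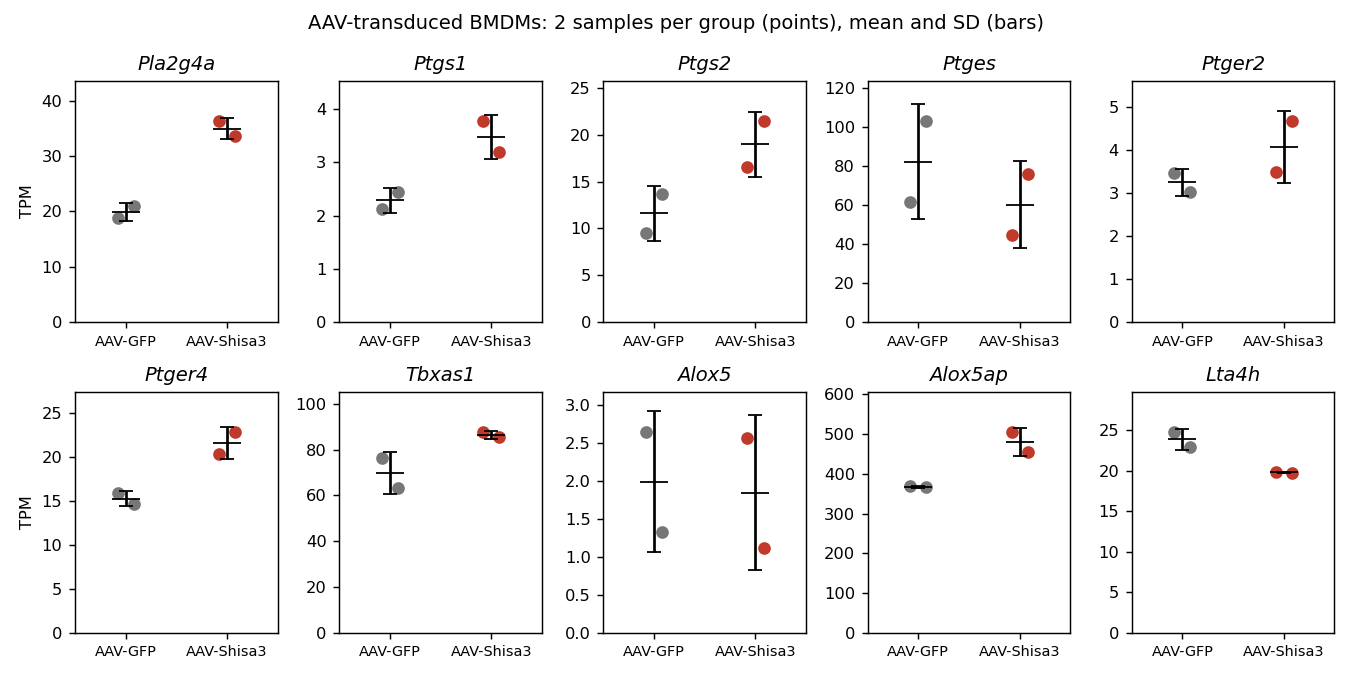
TPM of the 10 genes in the 2 AAV-GFP and 2 AAV-Shisa3 samples (points), with the mean and SD of each group (bars), on axes that start at 0. The groups overlap in Ptges and Alox5.

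**Figure D5:**
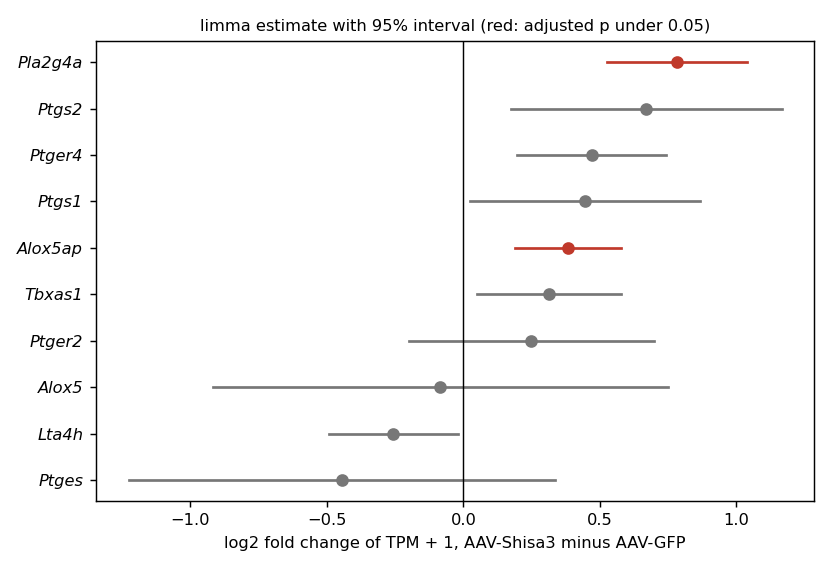
Log2 fold changes of TPM + 1 (AAV-Shisa3 minus AAV-GFP) with 95% intervals from limma, n = 2 per group, ordered by size. Pla2g4a and Alox5ap (red) have an adjusted p under 0.05, and the intervals of Ptger2, Alox5 and Ptges cross 0. The sign of Alox5 changes when samples are centred on their medians.

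In AAV-GFP samples the order of the 10 genes by mean TPM was Alox5ap (367), Ptges (82.3), Tbxas1 (69.7), Lta4h (23.9), Pla2g4a (19.9), Ptger4 (15.3), Ptgs2 (11.6), Ptger2 (3.25), Ptgs1 (2.29) and Alox5 (1.99). Neighbours in that order did not overlap between their samples, except for Ptges with Tbxas1 and Ptgs1 with Alox5. FLAP thus stood far above the lipoxygenase it serves, at 140 and 275 times its TPM with AAV-GFP and 198 and 406 times with AAV-Shisa3. In the LPS libraries Alox5ap per kb was 125, 105 and 160 times Alox5 at 0 h, 2 h and 4 h.

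Of the 50 further eicosanoid genes, 28 had a mean of at least 1 TPM, and 1 rose and 1 fell at a limma adjusted p below 0.05 (3 and 4 at an unadjusted p). Over all genes tested the shares were 2.23% and 4.1%, and 8.21% and 19.8% at an unadjusted p, so 1 and 1 of 28 is near the background. Cyp4f18, a hydroxylase that breaks down LTB4 in mouse myeloid cells, rose, with a TPM of 3.96 and 4.33 in AAV-GFP and 9.41 and 9.37 in AAV-Shisa3 (log2 difference 1.01, limma adjusted p = 0.0216). Cbr1, a carbonyl reductase that can act on prostaglandins, fell, with 31.53 and 24.87 in AAV-GFP and 15.35 and 17.09 in AAV-Shisa3 (-0.75, limma adjusted p = 0.0397). Leaving out any of the 4 samples ended both calls, while the log2 differences stayed at 0.96 to 1.07 for Cyp4f18 and -0.92 to -0.59 for Cbr1. Without the variance trend both calls also ended (adjusted p from limma of 0.0557 for Cyp4f18 and 0.0791 for Cbr1). The same held with no filter on low values (0.105 and 0.163). Centring on the sample median ended the call of Cbr1 (adjusted p = 0.0699 from limma). Ltc4s had 0.73 and 0.57 TPM with AAV-GFP and 1.91 TPM in both AAV-Shisa3 samples (0.82, adjusted p = 0.0681 from limma), at a level where few reads may stand behind a value. Hpgds had 74.69 and 70.35 against 59.53 and 54.4 TPM (-0.34, adjusted p = 0.0750 from limma). The other PGE synthases had log2 differences of -0.09 (Ptges2) and -0.07 (Ptges3) and the EP1 receptor Ptger1 of 0.14, and the sign of Ptges2 and Ptges3 changed after centring. The median log2 fold change of the 28 genes was 0.11. The remaining 22 genes, with Hpgd, Ptger3, Ptgdr, Ptgdr2, Ptgfr, Tbxa2r and Ltb4r2 among them, had means of at most 0.563 TPM and were not tested.

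Set side by side, the comparisons gave different values for the same genes. Pla2g4a had log2 values of 5.11 at 4 h of LPS and 0.78 in AAV-Shisa3. Ptgs2 had 10.68 and 0.67, Ptger4 1.36 and 0.47, and Ptges 8.83 and -0.45. Alox5ap had -0.60 at 4 h and 0.38. The experiments share no samples, and whether a gene's values differ between them was not tested. By the distance over its log2 folds at 2 h, at 4 h and in AAV-Shisa3, among 10532 genes kept in both tables, the genes most like Ptgs2 were Edn1 (distance 0.490), Acod1 (0.939) and Lipg (1.38). Those most like Alox5 were Htatsf1 (0.0386), Atg7 (0.0794) and Psmg1 (0.0953), where many genes lie close together.

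The tables also differed in the balance of the cyclooxygenases before any comparison. Ptgs2 stood at 0.0247 times Ptgs1 per length in the LPS 0h library and at 4.51 and 5.59 times Ptgs1 in the AAV-GFP samples. Ptges stood at 0.00805 times Tbxas1 at 0 h, and at 0.807 and 1.63 times Tbxas1 with AAV-GFP. The values of a ratio come from separately processed tables, with reads per kb in the first and TPM in the second. The culture, the virus and the processing of the table cannot be told apart here.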

How the data were processed

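The RNA of 7 BMDM samples was sequenced as paired-end reads. The labels name the build mm9, while 99.2% of the LPS identifiers are also in GENCODE M21 on GRCm38. Which build the values used is not settled here. The aligner and the programs behind the values are not given in the sources used here. The authors deposited, for LPS, a signal per gene, which held whole reads scaled by library, and, for AAV, values read as deposited TPM, a unit inferred from their sums. A count test could not be fitted to the recovered reads, with 1 library per time point. Genes with a mean of at least 1 were kept. LPS folds are ratios of the values, and log2 folds used a pseudocount of 1. The intervals of folds are exact binomial intervals at 95%. AAV values were tested as log2(TPM + 1) in limma with a variance trend over 11218 genes, Benjamini-Hochberg adjusted, threshold 0.05. This test was also run on simulated independent normal values with the spread of its own fit, which cannot check its assumptions here. Differences on the scale of log2(TPM + 1) understate the change of low genes.

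The 10 members and the lists were chosen with earlier results of these data known. Named genes were the members, the further genes past the threshold, the 3 largest differences at 4 h in each direction (mean value of at least 10) and family partners, and also, chosen after their values were seen, Hpgds, Ptgr1 and Ptgr2, with Ttc33 and Hipk2 as overlapping genes. Positions are from GENCODE M21 on GRCm38, whose identifiers matched 99.2% of the LPS table and whose symbols matched 96.4% of the AAV table. Markers of other cells were read as lists. Alternatives were other scalings, pseudocounts, filters, the test without its trend, the replicate number as a block and leaving out each sample; the difference of 4 h and 2 h and 2 of the promoter motifs were added after the data were seen. R 4.3.3 with limma 3.58.1 and edgeR 4.0.16 and Python 3.11.15 were used.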

Additional observations from a re-analysis of the deposited data

How the results depend on the processing

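For the 10 genes in AAV-Shisa3 against AAV-GFP, 2 higher and 0 lower, the count of higher genes was 0 without the variance trend and 0 with no filter on low values, and 1 with a pseudocount of 5, where the adjusted p of Alox5ap was 0.0505. Leaving out each sample gave 0 to 0 higher genes. The cause was not tested. Among the further eicosanoid genes, with 1 higher and 1 lower, there were 0 and 0 without the trend, 0 and 0 with no filter, 2 and 0 with centring, 2 higher with at least 1 TPM in every sample, and 0 to 0 in each direction with each sample left out. Over all genes, with 250 higher and 460 lower, there were 1 and 4 without the trend, 410 and 230 with centring, 0 and 0 with no filter (1118 and 2411 at an unadjusted p under 0.05), and 0 to 27 higher and 0 to 7 lower with each sample left out.

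The replicate number as a block gave 424 higher and 851 lower genes. With this replicate block, 1 of the 10 genes was lower (Ptges, adjusted p = 0.0275), and Ptgs2 (0.0242) and Shisa3 (0.0287) passed as well, while 2 of the further genes were higher and 2 lower. Deviations of same-numbered samples from their group means correlated at 0.188 across 11218 genes, but with 2 pairs the samples share only a number, and the block was not used.

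Among the genes named for AAV, signs reversed for Alox5, at 0.032 with centring and -0.46 to 0.29 with samples left out, for Ptges2 at 0.023 and Ptges3 at 0.049 with centring, for Ptges3 at -0.15 to 0.021 and for Ptger1 at -0.14 to 0.42 with samples left out (0.021 without AAV-Shisa3 replicate 1 and -0.14 without AAV-GFP replicate 1).

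For LPS, the count of members at least 2-fold lower at 4 h was 6 with library totals and 1 with centring, against 2. The median log2 fold of all genes at 4 h moved as well, from -0.04 to -0.83 with library totals and 0.33 with centring. At 2 h it moved from -0.05 to -0.71 and 0.26, so counts under these scalings are not results about the listed genes alone. Of the further genes 2 were higher at 2 h with library totals and 3 with a mean value of at least 5, against 6, and 5 were lower at 2 h with centring, against 9. At 4 h, library totals gave 4 higher and 17 lower, against 9 and 10. Library totals shift the values by -0.66 at 2 h and -0.82 at 4 h in log2 before the pseudocount is added, and low genes move less. Depth limits the 0 h values of Ptgs2 and Ptges, with 38 and 27 reads, and is unknown for the AAV table.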
